A study of Vitis vinifera with 3 samples.

Results

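The stilbene synthase cluster on chromosome 16 is described here by the differentially methylated regions that the authors listed in it. Stilbene synthase makes resveratrol from coumaroyl-CoA and malonyl-CoA. It is a close relative of chalcone synthase, which uses the same substrates for flavonoids and anthocyanins. Grapevine carries many tandem copies of the stilbene synthase gene, most of them on chromosome 16, and stilbenes accumulate in berry skin during ripening and after stress. Cytosine methylation in plants occurs in the CG, CHG and CHH contexts (H is A, C or T). CG methylation is kept after DNA replication by MET1. CHG methylation is kept by CMT3, and CHH methylation has to be set anew by CMT2 or by RNA-directed methylation.

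The cluster was bounded by the gene models with identifiers from VIT_16s0100g00700 to VIT_16s0100g01250. The deposited tables list 30 such models, from VIT_16s0100g00750 to VIT_16s0100g01200. They span positions 16238965 to 16711898 of chromosome 16 in the authors' coordinates, or 472.9 kb, on a genome build not given in the sources used here. All rows lying within these bounds were taken. They came to 596 of the 377997 rows in the 9 tables, and to 557 CHH, 33 CHG and 6 CG regions. The remainder of chromosome 16 held 18021. The tables give no gene function and 0 of the 30 identifiers matched the reference gene list, so the enzyme could not be checked for any model and the models are named by identifier only.

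The berries came from Vitis vinifera cv. Fujiminori at 3 stages, with 1 bisulfite sequencing library each: first growth at 40 days after flowering, véraison (the onset of ripening) at 65 days and maturity at 90 days. Each table compares 2 libraries in 1 context and gives, per region, the average methylation level in each library and the authors' p. The read depth is unknown. With 1 library per stage no difference has a replicate check, and every value describes these libraries only. Each pair of comparisons shares a library. Copies of a tandem array resemble each other, with the handling of reads that matched several copies not given in the sources used here.

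CHH regions were dense in the cluster. Between véraison and first growth, 293 CHH regions were listed in it, or 619.5 per Mb, against 385.9 per Mb in the rest of chromosome 16. The ratio was 1.61 (exact 95% interval 1.42 to 1.80, counting error over regions only). It was 1.54 (1.35 to 1.76) between maturity and first growth, with 229 regions in the cluster, and 1.48 (1.02 to 2.07) between maturity and véraison, with 35. Listed CHH regions covered 4.01% of the cluster's bases and 2.91% of the rest of the chromosome for véraison against first growth. Neighbouring regions are not independent, and 45 of the 293 overlapped the region before them, so the intervals are too narrow.

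Chromosome 16 was also divided into 46 consecutive windows of the cluster's length, aligned to its bounds. The cluster's 293 CHH regions at véraison against first growth compared with a median of 179 and a range of 86 to 403 in the other 45 windows, of which 2 held more. At maturity against first growth 3 of the other windows held more than its 229 regions, and at maturity against véraison 4 held more than its 35. The next window towards higher coordinates, which lies outside the cluster, was nearly as dense, with 278 regions at véraison against first growth and 221 at maturity against first growth. In the window before the cluster these counts were 204 and 149. Between maturity and véraison, the 1 Mb on each side of the cluster held CHH regions at nearly the cluster's density, with a ratio of 1.01 (0.680 to 1.47).

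**Figure D1:**
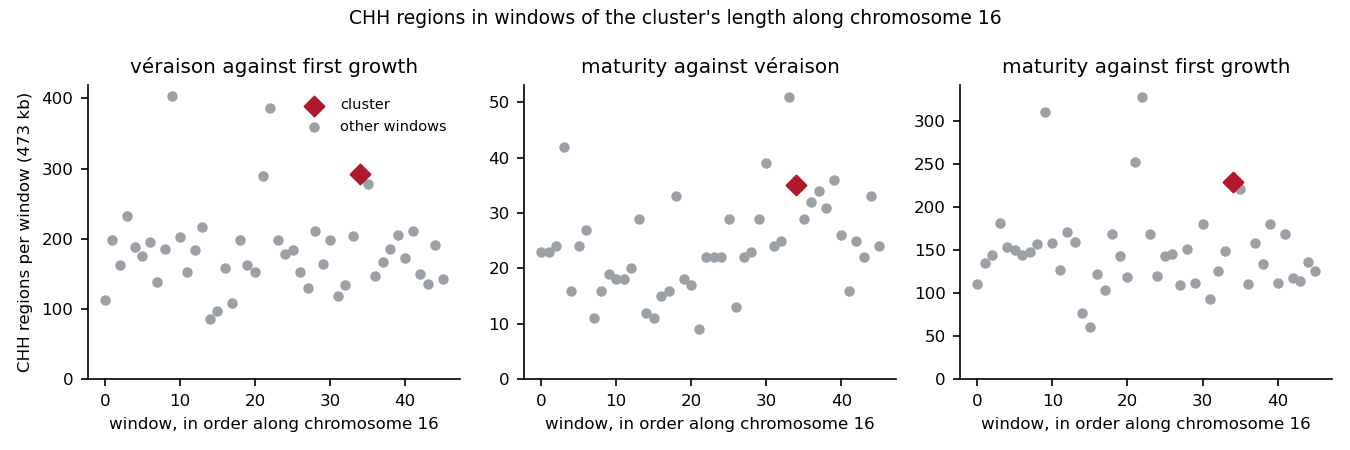
Each point is the number of CHH regions listed in 1 of 46 consecutive windows of 472.9 kb along chromosome 16, for each pair of stages. The diamond is the cluster, with 293, 35 and 229 regions, and 2, 4 and 3 of the other windows lie above it.

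The CHH regions of the cluster were almost all more methylated after first growth, as elsewhere. At véraison 292 of 293 were higher than at first growth (99.7%, interval 98.1 to 99.99%), where 99.6% of the regions in the whole table were higher. At maturity 228 of 229 were higher than at first growth, where the table had 99.4%. These shares are at the background of the tables. The median CHH level of the cluster's regions was 15% at véraison, with quartiles of 11 and 20%, against 5% at first growth, with quartiles of 2 and 7%. In the rest of the chromosome the medians were 18% at véraison and 5% at first growth.

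The differences in the cluster were small ones. The median gain at véraison over first growth was 10 percentage points in the cluster (95% interval of the median 10 to 11, quartiles 8 and 14), against 13 points in the rest of the chromosome (13 to 14, quartiles 9 and 22). Gains this small were not particular to the cluster. Of the other 45 windows, 39 had a larger median gain, 2 an equal one and 4 a smaller one. The windows with 403 and 386 CHH regions, more than the cluster, each had a median of 7 points. Regions that differed by 10 to 14 points were 2.48 times as dense in the cluster (2.03 to 2.99998), whereas regions that differed by 30 points or more were sparser, with 8 in the cluster and a ratio of 0.31 (0.13 to 0.62). The split at the table's median difference of 15 points gave 228 regions below it and 65 at or above it. The ratio was 2.29 (1.99 to 2.61) for those below and 0.78 (0.60 to 1.002) for those at or above. The upper side was not uniform. Regions that differed by 15 to 19 points were denser in the cluster (ratio 1.47, 1.03 to 2.03), and those that differed by 20 to 29 points were sparser (0.61, 0.36 to 0.95).

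Maturity against first growth uses the same first growth library. The ratio was 2.19 (1.87 to 2.55) below the table's median difference and 0.76 (0.56 to 0.9993) at or above it. It was 1.32 (0.88 to 1.90) for regions that differed by 15 to 19 points and 0.75 (0.45 to 1.18) for those that differed by 20 to 29 points, so neither band differed from the rest of the chromosome beyond counting error. Of the cluster's 229 regions, 3 differed by 30 points or more, which was 1.31% of them, against 13.4% in the rest of the chromosome. Regions in the cluster were also slightly shorter, with a median of 56 bp, against 61 bp elsewhere on the chromosome at véraison against first growth.

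**Figure D2:**
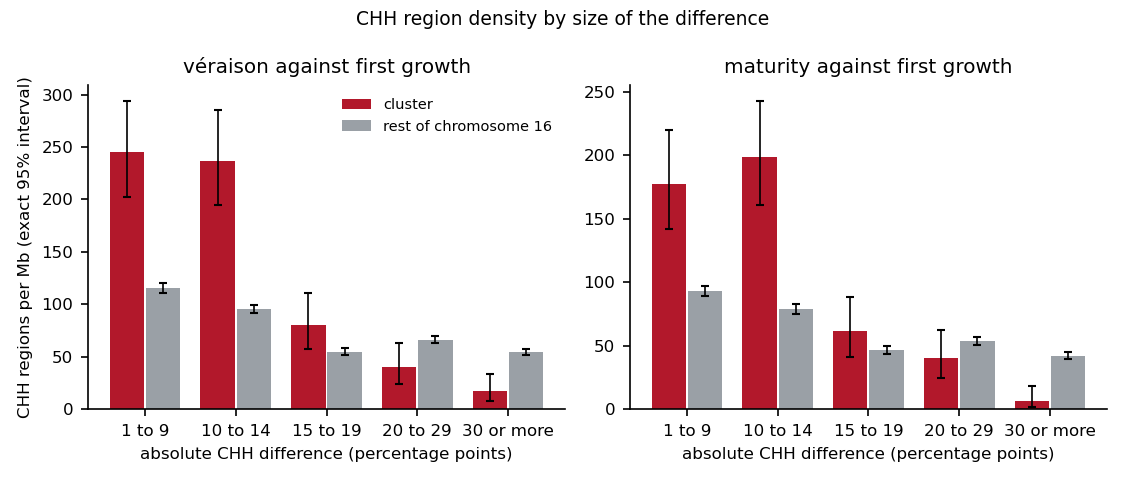
Bars give CHH regions per Mb in the cluster and in the rest of chromosome 16 by the absolute difference in level between 2 libraries, with exact 95% intervals for counting error. At véraison against first growth the cluster has 245.3 per Mb in the lowest band, against 115.2 per Mb in the rest, and 16.9 per Mb in the highest, against 54.3 per Mb.

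The CHH regions of the cluster lay within gene models far more often than on the rest of the chromosome. At véraison against first growth, 102 of the 293 overlapped a gene model (34.8%, interval 29.4 to 40.6%), against 9.83% in the rest of the chromosome (9.20 to 10.5%). At maturity against first growth the shares were 38.4% and 9.62%, and at maturity against véraison 37.1% and 9.91%. Among the other 45 windows of chromosome 16, 1 had a larger share at véraison against first growth, and 0 had one at maturity against first growth. Listed gene models took up 24.2% of the cluster's bases and 18.1% of the rest. A model is listed only where some region overlaps it, so densities within models depend on which models were listed. At véraison against first growth, the cluster had 0.891 CHH regions per kb of listed gene model and the rest of the chromosome 0.210 per kb, a ratio of 4.24 (3.41 to 5.21). The corresponding ratio was 4.59 (3.63 to 5.75) at maturity against first growth and 4.19 (2.16 to 7.47) at maturity against véraison. Among regions that differed by at least the table's median, it was 1.57 at véraison and 1.93 at maturity, each against first growth.

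The ratio was above 1 within each class of model length examined. For models longer than 10 kb at maturity against véraison it was 3.04 (0.60 to 9.57). That value rests on 3 cluster regions in 1 model and did not differ from 1 beyond counting error. The cluster held 4 models longer than 10 kb, and with such models left out on the whole chromosome the ratio was 3.07 at véraison against first growth. Among models of 1 to 2.5 kb, the size of most models in the cluster, 43 CHH regions fell in 37.7 kb of 23 cluster models, or 1.14 per kb, against 0.450 per kb in 84 models elsewhere on chromosome 16 (ratio 2.53, 1.68 to 3.79). Of these models, 20 of 23 in the cluster and 30 of 84 elsewhere overlapped a CHH region of that table. A model appears in the tables because some region overlaps it, so these shares and the ratios within models hold among listed models and not among all genes. Of the cluster's 30 listed models, 29 overlapped a CHH region of some comparison. Of 56 possible identifiers in the range, in steps of 10, 26 were not listed and do not enter the densities.

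With bases within listed models left out, the order just upstream of the gene models was the opposite. In the 3 kb upstream, the cluster had 0.297 CHH regions per kb and the rest of the chromosome 0.557 per kb at véraison against first growth (ratio 0.53, 0.32 to 0.84). At maturity against first growth the ratio was 0.54 (0.30 to 0.91), and at maturity against véraison it was 0.72 (0.19 to 1.90), with 4 regions in the cluster. These values leave out bases that lie within any listed model. Bases of genes that are not listed could not be left out and may count as upstream. In the 3 kb downstream the cluster was the denser, with 0.691 per kb against 0.384 per kb (ratio 1.80, 1.30 to 2.44). Within 500 bp upstream of the 30 models there was 1 CHH region at véraison against first growth and 0 at maturity against first growth, against 69 and 63 for the other 460 listed models of the chromosome. With so few regions the ratio for véraison had an interval of 0.01 to 1.28. The ratio for maturity had an interval of 0 to 0.925, which lay below 1. From 500 to 1500 bp upstream the ratio for véraison was 0.75 (0.38 to 1.34), and from 1500 to 3000 bp it was 1.00312 (0.66 to 1.47). These counts by distance take each model separately and include regions within neighbouring models, and in none of the 3 distance bands did the ratio for véraison differ from 1 beyond counting error. Divided into 5 equal parts, the cluster's models had 0.524 CHH regions per kb in the first, from 12 regions, at véraison against first growth. Each of the other 4 parts had between 0.873 and 1.05 per kb. The first part was also below parts 2 to 4 in the rest of the chromosome. There it had 0.189 per kb, parts 2 to 4 had between 0.228 and 0.234 per kb, and part 5 had 0.170 per kb.

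**Figure D3:**
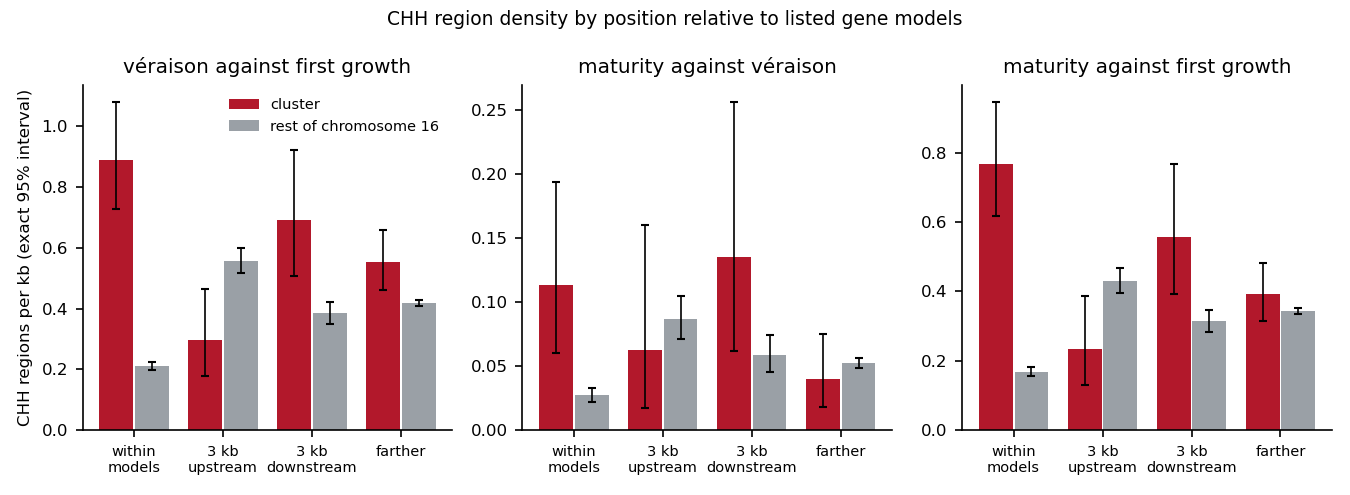
Bars give CHH regions per kb within listed gene models, in the 3 kb upstream, in the 3 kb downstream and farther away, in the cluster and in the rest of chromosome 16, with exact 95% intervals for counting error. At véraison against first growth the cluster has 0.891 per kb within models, against 0.210 per kb in the rest, and 0.297 per kb upstream, against 0.557 per kb.

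Along the cluster the CHH regions were uneven. Of the 293 at véraison against first growth, 43 had their midpoint in the 25 kb that starts 75 kb from the cluster's first base and 33 in the next 25 kb, whereas the 25 kb from 200 kb onwards held 1. The longest stretch with no region of that table ran from 16644959 to 16678092. Whether reads covered this stretch is not shown by the tables. The gains also varied with position, with a median of 7 points in the 25 kb from 100 kb onwards and 19 points in the last part of the cluster, from 450 kb onwards.

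**Figure D4:**
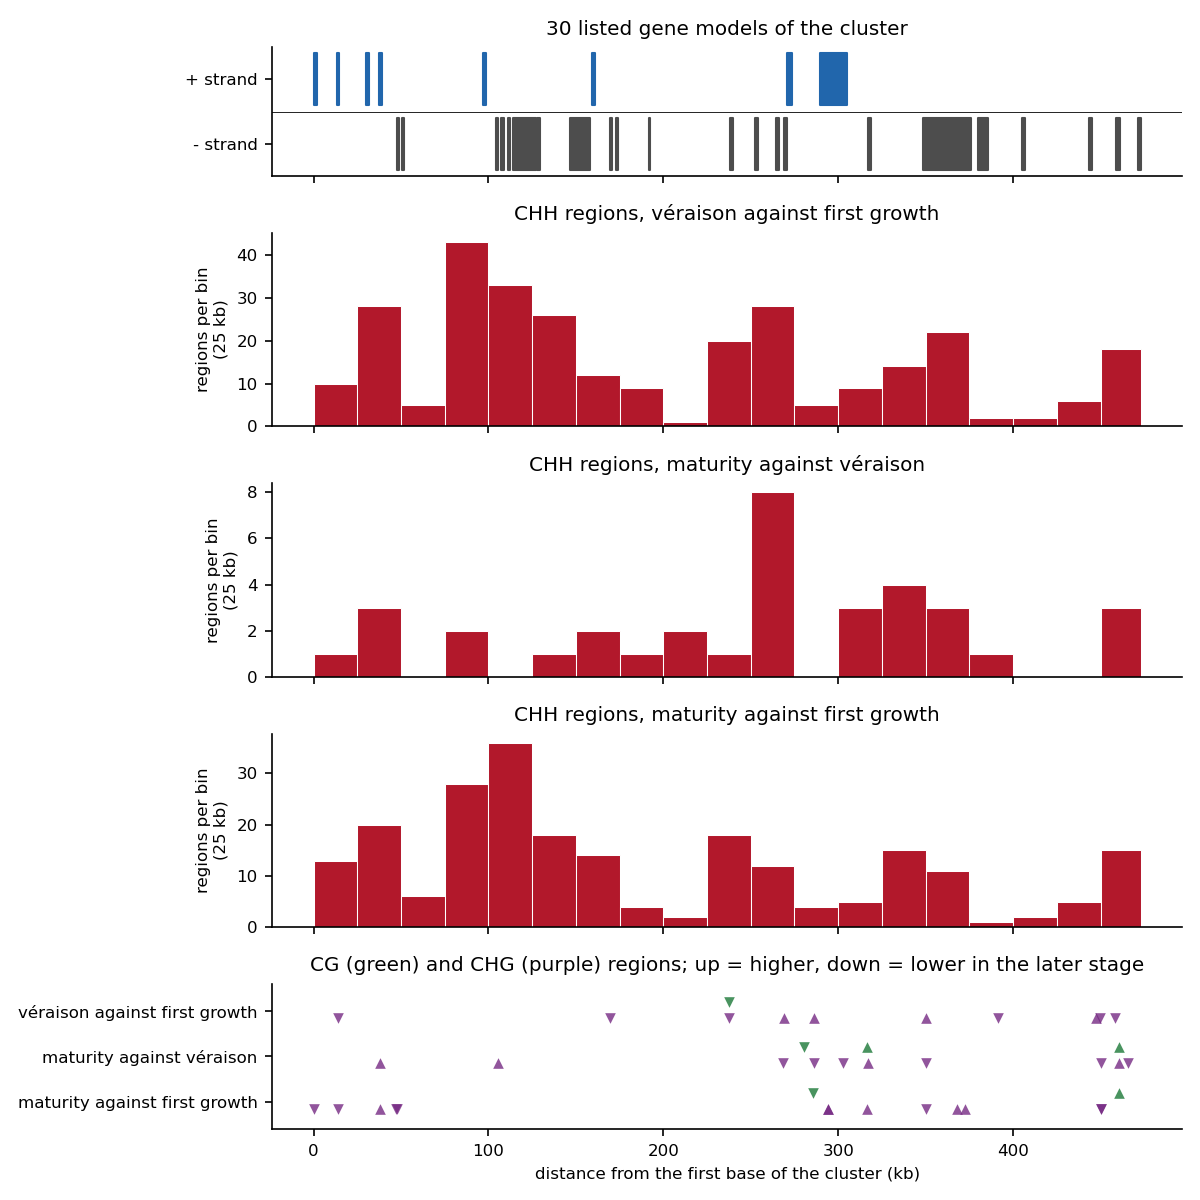
The top track shows the 30 listed gene models by strand, 8 on the plus and 22 on the minus strand, against distance from the cluster's first base in kb. Bars give CHH regions per 25 kb bin for each pair of stages, up to 43 at véraison against first growth, and triangles mark CG and CHG regions that were higher (pointing up) or lower (pointing down) in the later stage.

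Of the 30 gene models, 26 overlapped a CHH region at véraison against first growth, 8 at maturity against véraison and 22 at maturity against first growth. A CG or CHG region overlapped 10 of them. The models with most entries over the 9 tables were the long VIT_16s0100g01110 (27673 bp, 44 entries) and VIT_16s0100g00870 (13134 bp, 41 entries). VIT_16s0100g01110 overlapped 24 CHH regions at véraison against first growth, all higher, with a median level of 16% at véraison against 4.5% at first growth. VIT_16s0100g00870 overlapped 19, all higher, with a median of 10% at véraison against 3% at first growth, and 22 at maturity against first growth, with medians of 12% and 4%. Of all CHH regions listed for véraison against first growth, 99.6% were higher at véraison, so the directions in these 2 models were the background. The medians of the 2 models differed in these libraries. At véraison against first growth VIT_16s0100g01110 had 0.867 CHH regions per kb and VIT_16s0100g00870 had 1.45 per kb. No interval was computed for single models, so a difference in density between them was not shown. All listed models of the cluster together had 0.891 per kb. VIT_16s0100g00900 (11166 bp) had 18 entries, all CHH. VIT_16s0100g01080 (15286 bp) had 3 CHH regions at véraison against first growth, or 0.20 per kb, less than the other long models of the cluster. Elsewhere on chromosome 16, the 115 listed models longer than 10 kb had 0.156 per kb together, so its density was close to theirs.

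Among the models of ordinary length, VIT_16s0100g01000 (16476944 to 16478681, minus strand) was the most crowded, with 6 CHH regions in 1738 bp at véraison against first growth. Their levels were 13, 22, 31, 20, 22 and 22% at véraison, against 2, 8, 9, 6, 5 and 5% at first growth. All 6 were higher at véraison, as were 99.6% of all CHH regions listed for that comparison, and some of the 6 overlap their neighbours. The same model held the largest CHH gain of the cluster at maturity against first growth, 41% at maturity against 3% at first growth from 16477822 to 16477870 (p = 1.73591e-05 in the authors' deposited table).

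VIT_16s0100g00930 overlapped 6 CHH regions at maturity against first growth, with levels of 15 to 25% at maturity against 0 to 6% at first growth. VIT_16s0100g00750 overlapped 5, with medians of 16% at maturity and 4% at first growth, and VIT_16s0100g00860 overlapped 4, with medians of 15.5% and 6.5%. VIT_16s0100g00800 overlapped 3, with medians of 19% at maturity and 5% at first growth. All of these regions were higher at maturity, as were 99.4% of all CHH regions listed for that comparison. The other 4 of the 5 largest CHH gains at maturity over first growth lay outside gene models, at 2 places. Of all 229 cluster regions of that comparison, 38.4% overlapped a model. From 16448897 to 16448968 the level was 44% at maturity against 14% at first growth, and from 16448995 to 16449087 it was 32% at maturity against 6% at first growth. From 16702302 to 16702420 it was 41% at maturity against 15% at first growth, and from 16702244 to 16702312 it was 37% at maturity against 11% at first growth.

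A single place in the cluster had lower CHH levels after first growth. In VIT_16s0100g00850, from 16347069 to 16347121, the level was 4% at véraison against 53% at first growth, and the authors' deposited table gives p = 2.39401e-05. From 16347069 to 16347120 it was 10% at maturity against 60% at first growth. These entries were the 1 lower region among 293, where 0.361% of the whole table was lower, and the 1 lower region among 229, where 0.579% was. No other cluster region in these tables had a first growth level as high.

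The largest CHH gains at véraison lay outside listed gene models for the most part. So did the cluster's regions of that comparison as a whole, of which 34.8% overlapped a model. From 16700992 to 16701066 the level was 79% at véraison against 0% at first growth (p = 4.97913e-08 in the authors' deposited table). From 16429413 to 16429479 it was 63% at véraison against 0% at first growth. A longer region of 188 bp, from 16707536 to 16707723, had 46% at véraison against 7% at first growth. Within a model, VIT_16s0100g01020 had 42% at véraison against 8% at first growth from 16504512 to 16504553. From 16272390 to 16272464 the level was 39% at véraison against 7% at first growth. The region with the smallest p was a moderate gain over 219 bp, from 16489755 to 16489973, with 32% at véraison against 11% at first growth (p = 7.92763e-54 in the authors' deposited table).

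Between maturity and véraison the cluster's CHH regions went both ways. Of 35 regions, 24 were lower at maturity and 11 were higher (31.4%, interval 16.9 to 49.3%), where the whole table had 31.2% higher and 68.8% lower. The 24 lower regions had medians of 7% at maturity and 25.5% at véraison, and the 11 higher regions had 22% at maturity and 5% at véraison. The 3 largest decreases lay outside gene models, as did most of the 24 lower regions, of which 8 overlapped one. From 16429529 to 16429582 the level was 3% at maturity against 55% at véraison, and from 16490049 to 16490102 it was 6% at maturity against 43% at véraison. From 16707635 to 16707706 it was 15% at maturity against 51% at véraison. The next, from 16506756 to 16506807 and also outside a model, had 32% at maturity against 67% at véraison. The largest increase was from 16449028 to 16449088, with 36% at maturity against 10% at véraison. The 35 regions were short, with a median of 52 bp.

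Decreases of a like size were also listed within gene models. VIT_16s0100g00940 had 2 such regions, with 1% at maturity against 36% at véraison from 16411744 to 16411809 and 8% at maturity against 36% at véraison from 16412508 to 16412551. The second place had 6% at first growth in the table of véraison against first growth. In VIT_16s0100g01020 the place of the gain at véraison was again listed, from 16504506 to 16504552, with 10% at maturity against 44% at véraison. At the last 2 of these places, the level at maturity was within 2 points of that at first growth. The tables set side by side here share the véraison library.

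Where entries had the same start and end in more than 1 table, the level could be followed through the stages. This held for 6 CHH places of the cluster, each listed with the same bounds for 2 of the 3 pairs of stages. Which 2 pairs listed a place partly fixes the order of its levels, so these places do not show how common each order was. From 16282315 to 16282398 the level was 4% (first growth), 13% (véraison) and 14% (maturity). From 16573243 to 16573295 it was 5, 21 and 22% in the same order of stages, and from 16678311 to 16678355 it was 7, 17 and 18%. Within VIT_16s0100g00870, from 16356966 to 16357027, it was 4, 10 and 9%. The places above were listed for véraison and for maturity, each against first growth. The other 2 places were listed for véraison against first growth and for maturity against véraison. From 16259438 to 16259484 the level was 9, 22 and 7%, and from 16503176 to 16503306 it was 1, 13 and 3%.

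CG and CHG regions in the cluster were few and went both ways. For CG there were 1, 3 and 2 regions at véraison against first growth, maturity against véraison and maturity against first growth. The density ratio to the rest of chromosome 16 was 0.19 (0.005 to 1.09) in the first of these comparisons, so a lower CG density was not detectable with 1 region. For CHG there were 10, 10 and 13 regions, with ratios of 1.15 (0.548 to 2.14), 1.16 (0.551 to 2.15) and 1.38 (0.729 to 2.38), none of which differed from 1 beyond counting error. At véraison, 4 of 10 CHG regions were higher than at first growth, where the table had 40.5%. At maturity, 4 of 10 were higher than at véraison (49.7% in the table) and 6 of 13 were higher than at first growth (39.7% in the table). For CG, 0 of 1, 2 of 3 and 1 of 2 regions were higher, where the tables had 18.8%, 53.1% and 20.7%.

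VIT_16s0100g01100 (16555715 to 16557501, minus strand) was the model where all 3 contexts were higher at maturity than at véraison. The CG level from 16555457 to 16555715, a region that ends at the model's first listed base, was 39% at maturity against 9% at véraison (p = 1.99617e-07 in the authors' deposited table). The CHG level from 16555760 to 16555912 was 75% at maturity against 36% at véraison. On the minus strand both lie at the 3′ end of the model. The 3 CHH regions in it had 25, 22 and 21% at maturity, against 3, 2 and 1% at véraison, and the last 2 of them cover almost the same bases. At the same CHH places, levels against first growth were 23% and 19% at maturity, against 2% and 1% at first growth. Next to the model, from 16555380 to 16555587, the CHG level was 7% at maturity against 0% at first growth.

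In VIT_16s0100g01190 (16698041 to 16699922) the CG and CHG levels were higher at maturity in the same stretch. From 16699082 to 16699670 the CG level was 23% (first growth), 20% (véraison) and 47% (maturity). The authors' deposited table gives p = 6.00897e-08 for maturity against véraison. From 16699184 to 16699474 the CHG level was 40% at maturity against 18% at véraison. In CG, maturity stood above both earlier stages. A CHH region there, from 16699411 to 16699462, had 5% at maturity against 0% at first growth. VIT_16s0100g00780 had a CHG level of 33% at maturity against 16% at véraison from 16276672 to 16277102, and 35% at maturity against 16% at first growth from 16276679 to 16277102. VIT_16s0100g00840 had a small CHG gain, 11% at maturity against 1% at véraison from 16344407 to 16344468.

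Other models had lower CHG levels after first growth. In VIT_16s0100g00760, from 16252642 to 16252881, the level was 6% at véraison against 19% at first growth. From 16252618 to 16252881 it was 3% at maturity against 17% at first growth. In VIT_16s0100g00750, from 16239073 to 16239343, it was 1% at maturity against 11% at first growth. In VIT_16s0100g00930, from 16408012 to 16408506, it was 12% at véraison against 27% at first growth. These regions lay at or near the start of the first 2 models, which are on the plus strand, and at the 3′ end of the third, which is on the minus strand.

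The long models held the highest CHG levels. In VIT_16s0100g01080, from 16532907 to 16532949, the level was 91% at maturity against 43% at first growth. From 16532913 to 16532958, which largely repeats that region, it was 91% at maturity against 45% at first growth. From 16541726 to 16541766 it was 33% at maturity against 73% at véraison, so this model had differences of both signs. In VIT_16s0100g01110 the CHG level was 88% at maturity against 41% at first growth from 16611486 to 16611688, and 34% against 16% from 16606715 to 16606788. From 16588836 to 16588975 it was 23% (first growth), 19% (véraison) and 7% (maturity). From 16589248 to 16589415 it was 17% at véraison against 7% at first growth.

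Outside the gene models, the largest CHG difference at véraison was from 16630476 to 16630761, with 24% at véraison against 54% at first growth (p = 3.69977e-09 in the authors' deposited table). From 16286203 to 16286561 the CHG level was 20% at maturity against 40% at first growth, and the overlapping entry from 16286397 to 16286577 had 19% and 40%. Between 16688764 and 16689334, CHG regions of all 3 tables were lower in the later stage. From 16688764 to 16688961 it was 19% at véraison against 39% at first growth, from 16689032 to 16689115 it was 17% at maturity against 35% at véraison, and from 16689113 to 16689334 it was 15% at maturity against 33% at first growth. From 16697212 to 16697467 it was 17% at véraison against 35% at first growth, and from 16704564 to 16704752 it was 22% at maturity against 48% at véraison. From 16686427 to 16686588 the level was instead higher, with 33% at véraison against 14% at first growth.

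At 2 places CHG was higher at véraison than at either other stage. From 16525166 to 16525417 the level was 25% at véraison against 10% at first growth, and from 16525179 to 16525419 it was 8% at maturity against 26% at véraison. In VIT_16s0100g01030, from 16507555 to 16507977, it was 14% at véraison against 5% at first growth. From 16507537 to 16507778 it was 4% at maturity against 11% at véraison. Both tables share the véraison library.

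The CG regions outside gene models, 1 in each comparison, were lower in the later stage. Of all listed CG regions, 18.8% were higher at véraison and 20.7% at maturity than at first growth. Between maturity and véraison 53.1% were higher at maturity. So few regions do not set the cluster apart from these shares. From 16476243 to 16476529 the CG level was 9% at véraison against 19% at first growth. A CHG region that overlaps it, from 16476363 to 16476610, had 5% at véraison against 14% at first growth. From 16519207 to 16519644 the CG level was 6% at maturity against 19% at véraison, and from 16524420 to 16524584 it was 1% at maturity against 16% at first growth. Within tables, CG and CHG regions of the cluster overlapped in 2 cases, and both had the same direction in the 2 contexts.

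**Figure D5:**
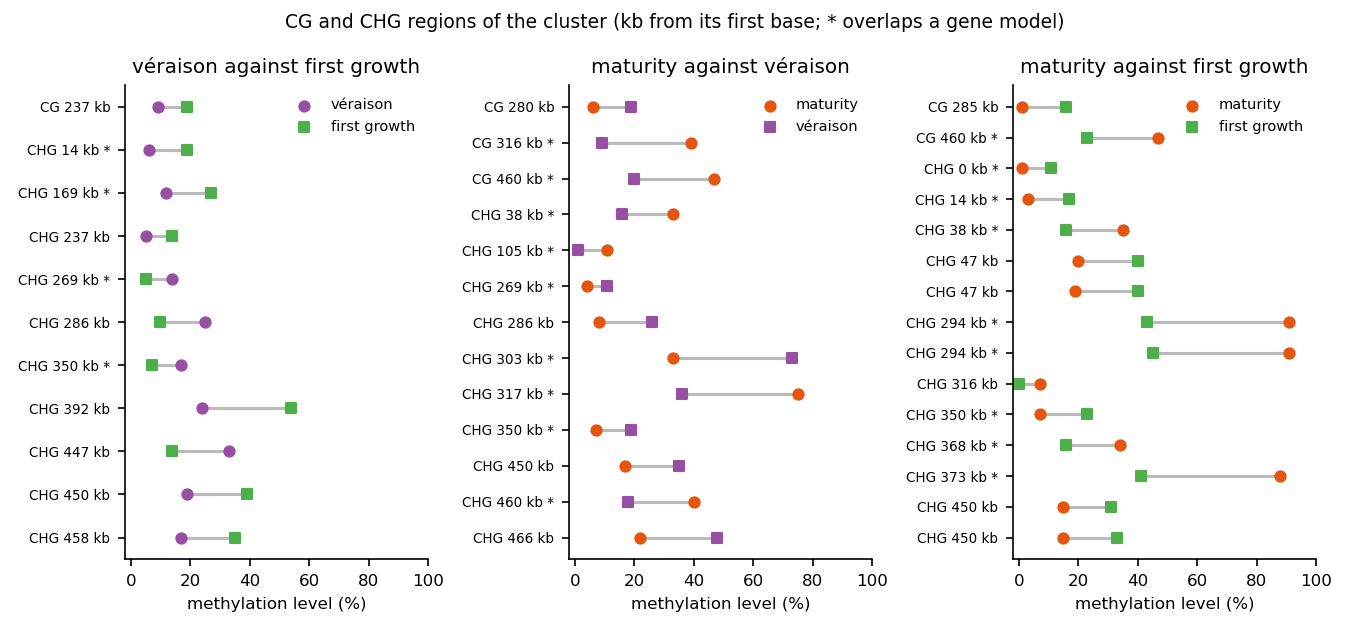
Each line joins the levels of 1 CG or CHG region in percent at 2 stages, labelled by its distance from the cluster's first base in kb, with a star where it overlaps a gene model. Maturity lies to the right of véraison in the CG and CHG regions of VIT_16s0100g01100 and VIT_16s0100g01190, such as the CG region of 39% at maturity against 9% at véraison.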

How the data were processed

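Bisulfite sequencing of berry DNA was done with 1 library per stage. Per the submitters' processing notes, BSMAP 2.73 was among the tools, with region caller, coverage filter, build and annotation not given in the sources used here. Deposited by the authors were 9 tables of regions, for 3 pairs of stages and 3 contexts. The deposited levels are fractions from 0 to 1 per the file headers, shown here as percent in steps of 1 point. The deposited p-value is called a chi-square statistic in the file headers, but none exceeds 0.00999823, so it was read as the p-value of a test between 2 libraries, with no adjustment stated.

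Differences are the later minus the earlier stage. Rows with start and end within the bounds were members. The length of chromosome 16 was taken as the last listed end, 22052852. Densities have exact Poisson and shares exact Clopper-Pearson 95% intervals, and ratios have the conditional exact interval. These cover counting error over regions only, and no test was run between stages. Positions relative to gene models use region midpoints, and a base within a model counts as such before it counts as upstream or downstream. Computations used Python 3.11.15, pandas 2.3.3 and SciPy 1.17.1, and were tested on simulated data.

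The members, lists and measures were chosen with earlier results of these data known. Named were the 12 models with most entries, every model with a CG or CHG region, all CG and CHG regions in tables with at most 10 of them (otherwise the 5 largest each way), the 5 largest CHH differences each way and regions repeated between tables. VIT_16s0100g00850, VIT_16s0100g00940, the CHH regions of single models, those with the smallest p, and any CHG region beyond these limits were chosen after their values were seen. Alternatives changed the regions kept, the bounds, the comparison area, the density measure and the scale. No sequence was printed, since no genome of the files' build was used here.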

Additional observations from a re-analysis of the deposited data

How the results depend on the processing

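Of 129 CHH values recomputed on the reported scale, 102 stayed within the interval of the reported value, and all 3 CHH medians on the log2 scale kept their direction. Some of the 102 could not change and say nothing on stability. No region crossed the bounds, so counting any overlap left every value as it was. The comparison area does not enter the shares or medians. Restricting to the larger differences, those of at least the median size in their table, turned round the CHH density ratio, to 0.78 at véraison against first growth and 0.76 at maturity against first growth. It gave 1.01 at maturity against véraison, ratios within gene models of 1.57 and 1.93 against first growth, and median differences of 18 points (véraison and maturity against first growth) and -29 points (maturity against véraison). Regions of at least the median length gave density ratios of 1.199 and 1.27 against first growth. They gave ratios within models of 3.35 (véraison) and 3.52 (maturity) against first growth and 1.83 between maturity and véraison. Their share higher was 100% in both comparisons with first growth and 50% between maturity and véraison, where the median difference was -0.5 points. Base pairs covered gave a ratio of 1.38 at véraison against first growth. The 1 Mb on each side gave 1.01 between maturity and véraison, and within models 5.31 at véraison and 5.96 at maturity against first growth. Without gene models over 10 kb the ratios within models were 3.07 and 3.54. The cluster narrowed to its inner 0.5 gave upstream ratios of 0.20 and 0.17 and shares higher of 100% in both comparisons with first growth. These rest on fewer regions, and the cause was not tested.

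For the few CHG and CG regions the direction depended on the choice. Among regions of at least the median difference, the CHG density ratio was 0.23 at véraison and 0.63 at maturity against first growth, and the CHG median at maturity against first growth was 47 points. In the inner 0.5, CHG medians were 9 points at véraison and 26.5 at maturity against first growth. The CHG median at maturity against véraison was 10 points among regions with p at or under 0.1 of the largest. The CG median at maturity against first growth, reported as 4.5 points from 2 regions, was -20.5 points with bounds widened by 50 kb, -15 in the inner 0.5 and -1.04 as a log2 ratio. Within models and upstream, all alternatives were chosen after seeing the data, as was joining overlapping regions. No paired analysis was possible because each stage has 1 library.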
